A study of Mus musculus with 7 samples.

Results

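Forkhead (Fox) transcription factors were followed in the RNA of whole mouse kidneys at E15.5. The members are the rows of the deposited expression table whose gene name is Fox, a letter from a to s and a number. The rule reads names only, but it was set with earlier results of these data known. Only listed genes could be members, and the lowest mean normalized signal of a listed gene was 18.45. The rule found 26 of the 16167 listed genes: 25 that encode a forkhead protein and Foxd2os, a noncoding RNA gene beside Foxd2. The GENCODE M21 annotation has 44 protein-coding forkhead genes under the same rule, and the other 19 were not analysed here. The 4 mutant libraries were made from Six2-Cre; Irx3/5(loxP/loxP) embryos, in which both copies of the neighbouring Iroquois genes Irx3 and Irx5 are floxed. Six2-Cre is a Cre recombinase driven by Six2 sequences and active in nephron progenitors, the cells that form podocytes and nephron tubules, and not in stroma or the ureteric tree. The 3 control libraries came from embryos with floxed alleles on 1 chromosome (Irx3/5(loxP/+)). Their labels name no Cre, so gene loss and Cre presence cannot be told apart in any comparison here. All libraries thus carry at least 1 floxed chromosome. Values are FPKM, reads scaled by gene length and by library depth, which allows levels of different genes to be compared; a fold change is the mutant mean less the control mean of log2(FPKM + 1), a scale on which changes of low genes look smaller.

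Forkhead proteins bind DNA through a shared winged-helix domain, and the letter in the name marks a subfamily. In the developing kidney single members mark or direct single lineages. Foxd1 is the marker of the stromal progenitors, Foxc1 and Foxc2 act in the mesenchyme, podocytes and vessels, and Foxi1 switches on the proton pump and transporter genes of intercalated cells, the acid-base cells of the collecting system. Others have general roles: FoxO proteins are held out of the nucleus by insulin and Akt signalling, and Foxm1 drives the genes of mitosis.

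Reads in listed genes ranged from 40511920 (control replicate 3) to 69028943 (control replicate 1). Irx3 stood at 12.7 to 14.7 FPKM in controls and 3.99 to 6.75 in mutants (log2 fold change -1.16, SE 0.15; adjusted p = 0.0144 by limma). Irx5 stood at 1.36 to 1.59 FPKM in controls and 0.895 to 2.05 in mutants (limma adjusted p = 0.989), and the floxed exons are not named in the labels, so these reads do not test the deletion of Irx5. All 12 kidney marker genes checked, among them Pax2, Wt1 and Ret, were at 7.24 FPKM or more in every library. Skeletal muscle genes summed to 102 FPKM in control replicate 1 and to 24.5 to 34.3 FPKM elsewhere.

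Of the 26 rows, 24 had at least 1 FPKM in at least 3 libraries and were tested; Foxf1 and Foxo6 were not. Limma called 0 of the 24 at an adjusted p under 0.05, where it called 1.53% of all 13466 genes tested. At an unadjusted p under 0.05 there were 5 members, 3 lower and 2 higher (13.7% of all genes), and limma-voom on recovered reads called 0 (1.6% of all genes). The authors' deposited table, made with DESeq2, called the same 5 by adjusted p: Foxc2, Foxd2 and Foxi1 lower and Foxa1 and Foxp2 higher, against 5.49% of all genes in that table. All 4 mutants lay on one side of all 3 controls for 6 members, 4 lower (Foxc2, Foxd2, Foxo3, Foxo4) and 2 higher (Foxa1, Foxp2), which is 25.0% of those tested, against 14.5% of all genes (8.61% lower, 5.93% higher). Foxp2 is among these 6 and among the 5 by unadjusted limma p. It passed the filter only through the mutants, where it is higher, so both counts are given as descriptions. With limma's array weights, which give unlike libraries less weight, 4 members passed (9.67% of all genes did); without mutant replicate 1 there were 2, Foxc2 and Foxd2 (3.57%), and without control replicate 3 there was 1, Foxi1 (0.564%). The median fold change of the 24 was -0.011, against -0.0020 over all genes tested, and 19 of the 24 lay within 0.2 of 0. In whole kidneys, fewer cells of a type and less RNA per cell cannot be told apart.

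**Figure D1:**
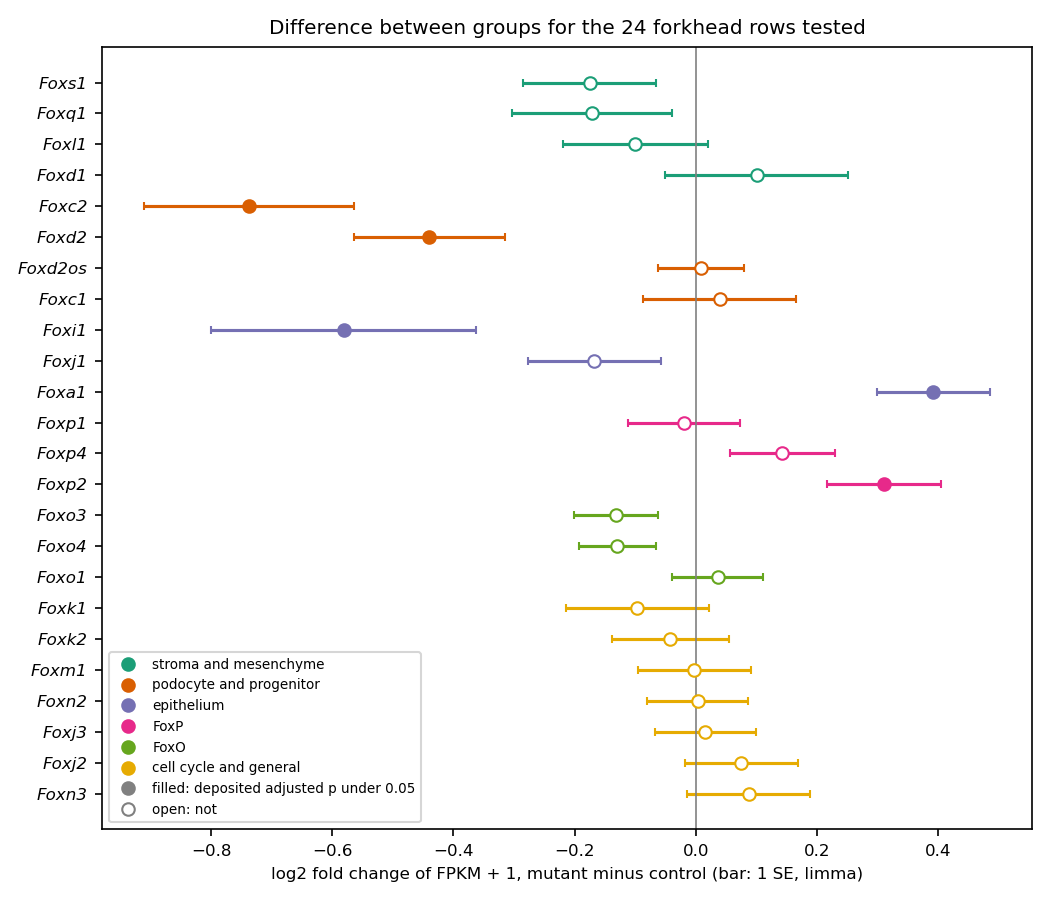
Log2 fold change (mutant minus control) of the 24 forkhead rows tested, with 1 SE from limma, coloured by role. Filled points are the 5 members called in the authors' deposited table; Foxc2 is lowest at -0.74 and Foxa1 highest at 0.39.

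RefSeq promoter windows (250 bases before to 50 after the gene's start, build GRCm38.p6) were found for 13 of the 26 rows, in 15 windows. They are shown for Foxi1, Foxd2 and Foxa1, which the deposited table called, and for Foxd1, which it did not. Capitals mark matches, on either strand, to 3 motifs: the forkhead core GTAAACA, the Iroquois motif ACANNTGT and the TATA box core TATAA, the last chosen after the letters were seen.
Foxi1: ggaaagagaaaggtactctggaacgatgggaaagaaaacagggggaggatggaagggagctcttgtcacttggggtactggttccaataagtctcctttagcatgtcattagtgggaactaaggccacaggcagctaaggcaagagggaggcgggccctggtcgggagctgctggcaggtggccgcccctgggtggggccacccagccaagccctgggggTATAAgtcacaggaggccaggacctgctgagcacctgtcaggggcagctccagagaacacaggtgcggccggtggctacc
Foxd2: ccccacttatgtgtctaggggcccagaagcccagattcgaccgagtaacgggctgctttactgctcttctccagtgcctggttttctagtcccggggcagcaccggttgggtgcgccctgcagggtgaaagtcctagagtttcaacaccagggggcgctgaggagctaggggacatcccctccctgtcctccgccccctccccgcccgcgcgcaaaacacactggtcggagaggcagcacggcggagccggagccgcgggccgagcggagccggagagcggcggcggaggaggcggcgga
Foxa1: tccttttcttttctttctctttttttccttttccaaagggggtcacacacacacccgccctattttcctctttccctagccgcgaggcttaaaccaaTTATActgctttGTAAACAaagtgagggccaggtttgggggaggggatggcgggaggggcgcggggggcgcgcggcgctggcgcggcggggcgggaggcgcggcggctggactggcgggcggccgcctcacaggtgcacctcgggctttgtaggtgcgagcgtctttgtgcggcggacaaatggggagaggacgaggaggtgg
Foxd1: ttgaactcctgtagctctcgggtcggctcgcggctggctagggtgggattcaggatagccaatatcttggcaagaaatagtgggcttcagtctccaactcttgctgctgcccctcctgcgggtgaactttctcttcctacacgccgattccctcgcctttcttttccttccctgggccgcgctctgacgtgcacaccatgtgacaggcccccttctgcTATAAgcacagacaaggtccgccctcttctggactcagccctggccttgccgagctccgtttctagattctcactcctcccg
The windows lie at chr11:34208040-34208339 (Foxi1, minus strand), chr4:114908849-114909148 (Foxd2, minus strand), chr12:57546062-57546361 (Foxa1, minus strand) and chr13:98353995-98354294 (Foxd1, plus strand). The Foxi1 window has 6 CpG pairs of letters, near the median of all windows, and holds TATAA starting at position -30 from the gene's start. Foxd1 has 15 CpG and TATAA at position -32, whereas the Foxd2 window has 26 CpG and matched none of the motifs. The Foxa1 window has 26 CpG, TATAA at -153, and the single GTAAACA among the 15 windows, a motif that 3.65% of all 32851 promoter windows hold. ACANNTGT was found in 1 of the 15, a window of Foxp1, against 7.38% of all windows, and TATAA in 4 of the 15, against 24.9%. The median CpG count was 31 in the 15 windows and 7 over all windows. These matches describe letters and were not tied to any binding.

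Foxc2 showed the largest log2(FPKM + 1) difference of the 24 forkhead rows tested, and that of its closest relative Foxc1 lay near 0. By the ratio of mean FPKM, and in the authors' deposited table, Foxi1 was lower still (55.8% of the control mean, against 59.6% for Foxc2). Foxc2 (ENSMUSG00000046714.8) encodes a factor of mesenchyme and early podocytes. Its values were 37.2, 37.9 and 29.6 FPKM for control replicates 1 to 3, in that order here and below, and 26.4, 15.0, 20.02 and 21.8 FPKM for mutant replicates 1 to 4. The groups did not overlap, although the lowest control and the highest mutant were close. The log2 fold change was -0.74 (SE 0.17; adjusted p = 0.0871 by limma), and the exact permutation test over the 35 splits gave p = 0.0571, two-sided. In the authors' deposited table its log2 fold change was -0.75 (SE 0.17, adjusted p = 0.00111). Without mutant replicate 1, the highest mutant, limma's adjusted p was 0.0379. With any other library left out it was 0.107 to 0.314.

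Foxc1 (ENSMUSG00000050295.5), which acts with Foxc2 in many mesodermal tissues, had control values of 11.8, 10.7 and 8.40 FPKM, with mutants at 11.5, 9.27, 9.46 and 12.0 FPKM. The groups overlapped. Its log2 fold change was 0.039 (SE 0.13; adjusted p = 0.953 by limma; exact permutation p = 0.83), and the sign turned without control replicate 3, mutant replicate 1 or mutant replicate 4. Both genes have a single exon in the annotation. Foxc2 lies next to Foxl1 on chromosome 8, with Foxf1 in the same cluster, while Foxc1 sits on chromosome 13 in a cluster with Foxq1 and Foxf2. Of the neighbours of Foxc2, Foxl1 differed by -0.10 (SE 0.12) on that scale, and Foxf1 reached at most 0.683 FPKM in any library.

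Foxc genes were set beside the podocyte genes of the glomerular filter. Of 20 podocyte genes 18 were tested; 6 fell, 0 rose and 12 did not pass by limma, with a median of -0.33, against 1.05% of all genes lower. Nphs1, which encodes the slit diaphragm protein nephrin, fell from 7.46 ± 0.67 FPKM (SD, n = 3) to 4.62 ± 0.71 (SD, n = 4), a log2 fold change of -0.60 (SE 0.11; adjusted p = 0.0424 by limma). Rhpn1, a rhophilin gene, fell by 0.73 on the log2 scale. Wt1 and Vegfa, named after their values were seen, also fell, with log2 fold changes of -0.41 and -0.28. The count was 0 without control replicate 1 or 2 or mutant replicate 2, and 1 without control replicate 3, mutant replicate 3 or mutant replicate 4. Counting both directions, 10 of the 18 podocyte genes had an unadjusted limma p under 0.05 (13.7% of all genes). Of the 18, 14 lay below 0 and 4 above. In the authors' deposited table, 10 of the 20 listed were called lower and 0 higher (3.74% and 1.75% of all genes). Markers of nephron progenitors, another cell type of the same lineage, also moved. Of 15 tested 5 fell and 1 rose (1.05% and 0.475% of all genes), led by Cited1 and Uncx (log2 fold changes -1.99 and -1.98). When a library was left out, 2 to 7 were called. The part of these progenitor markers in the Foxc2 values was not tested.

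**Figure D2:**
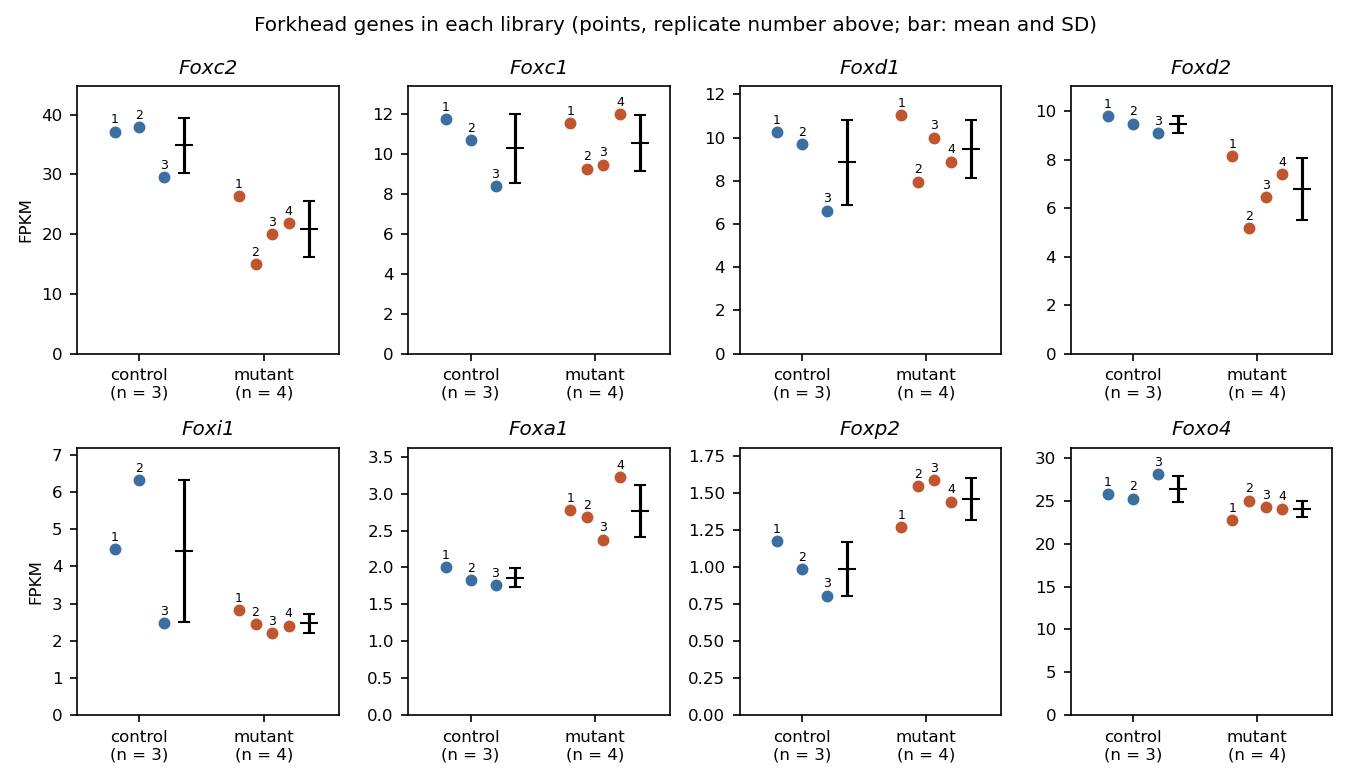
FPKM of 8 forkhead genes in every library, controls in blue and mutants in orange, with the replicate number above each point and the mean and SD of the group beside it. Foxc2, Foxd2 and Foxo4 sit lower in all mutants and Foxa1 and Foxp2 higher, whereas Foxc1, Foxd1 and Foxi1 overlap between groups.

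Foxd1 (ENSMUSG00000078302.6), the stromal progenitor factor, gave 10.2, 9.69 and 6.61 FPKM for controls, with mutants at 11.04, 7.95, 10 and 8.88 FPKM. Control replicate 3 was the lowest of all libraries, and the groups overlapped. The log2 fold change was 0.10 (SE 0.15; adjusted p = 0.877 by limma; exact permutation p = 0.657); it was -0.075 without control replicate 3. Of the 24 other stromal genes in the list, all tested, 6 rose, 0 fell and 18 did not pass by limma, with a median of 0.33, against 0.475% of all genes higher. Cldn11, a claudin gene, the retinoic acid enzyme gene Aldh1a2 and the guidance cue gene Ntn1 rose by 0.67, 0.47 and 0.47 on the log2 scale. Snai2 (0.45) and Rdh10 (0.36), named after their values were seen, also rose. Leaving out control replicate 1, 2 or 3, mutant replicate 2 or mutant replicate 4 took the count to 0. Counting both directions, 17 of the 24 had an unadjusted limma p under 0.05 (13.7% of all genes). Of the 24, 20 lay above 0 and 4 below. In the authors' deposited table, 12 of them were called higher and 0 lower (1.75% and 3.74% of all genes).

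The remaining mesenchymal members showed no call. Foxl1, known from the fibroblasts under epithelia, was at 7.25 to 9.84 FPKM in controls and 7.22 to 9.66 in mutants. Foxq1 was at 2.88 to 4.66 and 2.79 to 3.74 FPKM. Foxs1, a gene of pericytes, was at 1.80 to 2.49 FPKM in controls and 1.42 to 2.07 in mutants (log2 fold change -0.18, SE 0.11; adjusted p = 0.582 by limma), on 87 to 195 reads a library. Genes on the mural cell list gave 0 calls of 10 by limma and 0 by limma-voom. At an unadjusted p under 0.05 there were 5 (13.7% of all genes). The authors' deposited table called 1 higher and 2 lower (1.75% and 3.74% of all genes). The smallest p of the list were those of Anpep and the renin gene Ren1 (limma adjusted p = 0.0783 and 0.129). Anpep was at 26.97 ± 3.50 FPKM in controls (SD, n = 3) and 18.6 ± 2.72 in mutants (SD, n = 4). Ren1 was at 64.5 ± 7.27 and 28.0 ± 10.4 FPKM. Rgs5 of the same list, named after its values were seen, went the other way, at 14.2 ± 3.23 and 24.3 ± 7.67 FPKM. Its log2 fold change was 0.70 (SE 0.28, adjusted p = 0.319 by limma). It was the 1 called higher in the authors' deposited table (0.78, adjusted p = 0.0223). Of the 10 tested genes, 8 lay below 0 and 2 above. These are whole-kidney values, and which cells gave them was not tested. Foxf1, a target of Hedgehog signalling, was at 0.202 to 0.545 FPKM in controls and 0.292 to 0.683 in mutants, on 20 to 92 reads. The Hedgehog and smooth muscle list had 0 of 19 called by limma and 0 by limma-voom. It had 5 at an unadjusted p under 0.05 (13.7% of all genes) and 3 in the authors' deposited table (5.49%). Within the list, Gli1, a Hedgehog target and transducer, and the T-box gene Tbx2 had the smallest p. Their log2 fold changes were 0.30 and -0.46 (limma adjusted p = 0.101 and 0.171).

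Stromal, podocyte and intercalated members were contrasted as ratios within each library, 6 pairs in all. Foxc2 was 3.16, 3.54 and 3.52 times Foxc1 in the controls and 2.28, 1.62, 2.12 and 1.82 times Foxc1 in the mutants. The 3 control ratios lay close together, also in control replicate 3, where both genes were low, and every mutant lay under them. On the log2(FPKM + 1) scale the difference of the ratios was -0.78 (exact permutation p = 0.0286, adjusted over the 6 pairs 0.0429, n = 3 and 4). Foxc2 to Foxd1 was 3.63, 3.92 and 4.48 in controls and 2.39, 1.89, 2.00 and 2.46 in mutants, a difference of -0.84 with the same exact permutation p. Foxi1 to Foxd1 (difference -0.68) and Foxi1 to Foxc1 (-0.62) were also lower in all 4 mutants, with the same exact permutation p. Foxc1 to Foxd1 differed by -0.061 (exact permutation p = 0.686) and Foxi1 to Foxc2 by 0.16 (exact permutation p = 0.571), each 0.686 after adjustment over the 6 pairs, and both overlapped between groups. The p of 0.0286 is the smallest that 35 splits can give, and the pairs share genes.

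**Figure D3:**
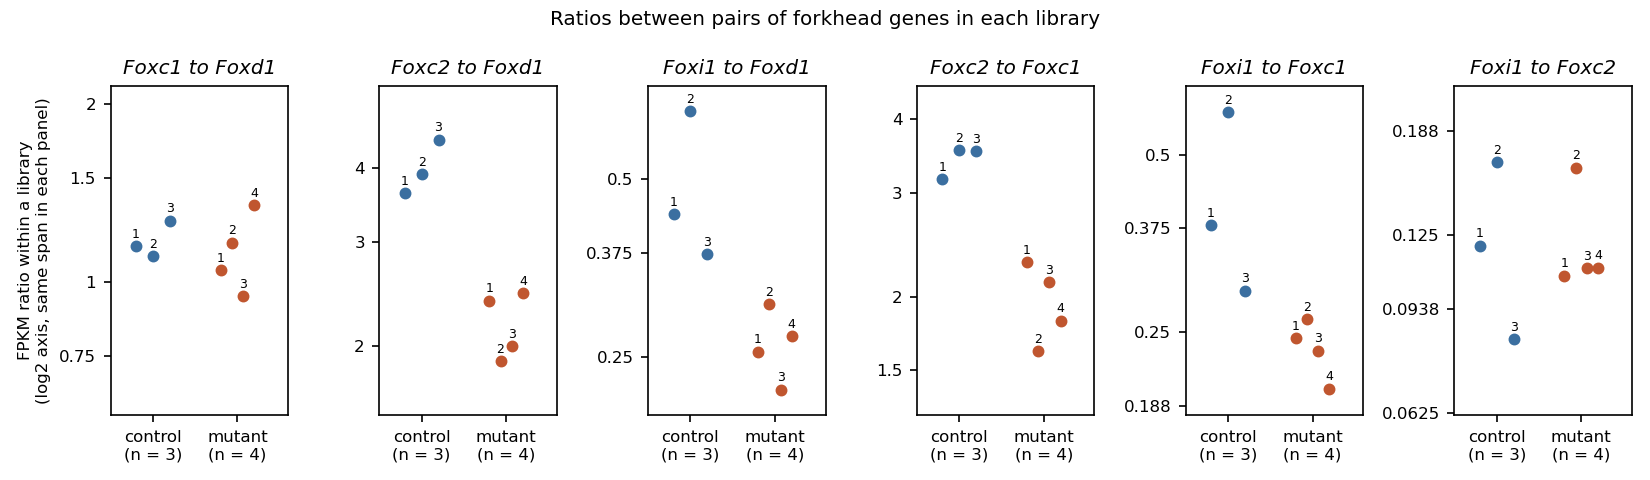
FPKM ratio of 6 pairs of forkhead genes within each library (log2 axis, the same span in every panel; controls blue, mutants orange, replicate numbers above). In 4 pairs all mutants lie under all controls; Foxc2 to Foxc1 runs from 3.16 to 3.54 in controls and from 1.62 to 2.28 in mutants.

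Foxd2 (ENSMUSG00000055210.5), a gene of the kidney mesenchyme related to Foxd1, gave 9.79, 9.50 and 9.10 FPKM for controls, with mutants at 8.15, 5.17, 6.46 and 7.40 FPKM. All mutants were lower than all controls, and the controls lay close together. The log2 fold change was -0.44 (SE 0.12, adjusted p = 0.135 by limma), and -0.48 (SE 0.15, adjusted p = 0.0388) in the authors' deposited table. Without mutant replicate 1, the highest mutant, limma's adjusted p was 0.0468. With any other library left out it was 0.184 to 0.393. Foxd2os, annotated on the opposite strand between Foxd2 and Foxe3 on chromosome 4, was at 4.76 to 5.21 FPKM in controls and 4.78 to 5.42 in mutants (log2 fold change 0.0086, SE 0.071; adjusted p = 0.984 by limma). The strand setting of the authors' counting is not given in the sources used here. The ratio of Foxd2 to Foxd2os, chosen after the values were seen, was 1.95, 1.99 and 1.75 in controls and 1.70, 1.05, 1.28 and 1.36 in mutants (exact permutation p = 0.0571, n = 3 and 4).

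Foxi1 (ENSMUSG00000047861.3) was lower in mutants on average, with a wide spread among controls. Controls gave 4.47, 6.31 and 2.47 FPKM, with mutants at 2.82, 2.44, 2.20 and 2.41 FPKM, on 239 to 890 reads a library. The mutants were close together, and control replicate 3 lay among them. The mutant mean was 55.8% of the control mean, a log2 fold change of -0.58 (SE 0.22; adjusted p = 0.276 by limma; exact permutation p = 0.0571), and -0.84 (SE 0.27, adjusted p = 0.0315) in the authors' deposited table. It was -0.87 without control replicate 3 (limma adjusted p = 0.0424) and -0.33 without control replicate 2 (adjusted p = 0.637).

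Marker genes of intercalated cells were examined next, among them proton pump subunits, which Foxi1 is known to switch on, and other markers such as Kit and the transcription factor gene Tfcp2l1. Of 18 listed intercalated cell genes, 9 were tested. Limma called 0, limma-voom called 1 (1.6% of all genes), and 6 had an unadjusted p below 0.05 (13.7%). The authors' deposited table had 11 of the 18 lower, as were 3.74% of all genes. The median of the 9 was -0.48. Atp6v1b1, a subunit of the proton pump, was at 5.03, 5.88 and 3.65 FPKM in controls and 2.95, 1.74, 1.08 and 1.52 in mutants (log2 fold change -1.08, SE 0.22; adjusted p = 0.0611 by limma). Rhbg, an ammonia transporter gene, had a log2 fold change of -0.70 (SE 0.15; adjusted p = 0.0673 by limma). All mutants lay under all controls for 10 of the 18 listed genes, tested or not; this was so for 8.61% of all genes tested. The order of the controls was also that of Foxi1: in 13 of the 18 genes control replicate 2 was highest and control replicate 3 lowest, an order seen in 17.8% of all genes tested. That order was looked for after the Foxi1 values were seen. The 9 genes not tested missed the filter of 1 FPKM in 3 libraries. A gene under 1 FPKM in all mutants passes it only if all 3 controls reach 1 FPKM. Thus Slc4a9, named after its values were seen, was left out at 2.36, 2.44 and 0.983 FPKM in controls and 0.307 to 0.703 in mutants. Slc26a4 (pendrin) was at 0.212 to 0.624 FPKM in controls and 0.0344 to 0.137 in mutants. With no expression filter limma called 2 of the list, and 255 of all 16167 genes. The limma count and median of the 9 leave these genes out.

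Foxa1 (ENSMUSG00000035451.8), a pioneer factor that opens chromatin in epithelia, was higher in every mutant. Controls gave 2.00, 1.83 and 1.76 FPKM, with mutants at 2.78, 2.69, 2.38 and 3.22 FPKM, on 240 to 550 reads. The mutant mean was 148.5% of the control mean, a log2 fold change of 0.39 (SE 0.093; adjusted p = 0.0824 by limma), and 0.57 (SE 0.15, adjusted p = 0.00484) in the authors' deposited table. Of 24 genes of the urothelium and ureteric tree 20 were tested, of which 2 rose, 0 fell and 18 did not pass by limma, with a median of 0.11, against 0.475% of all genes higher and 1.05% lower; the authors' deposited table called 6 of the list higher and 2 lower. Calb1, which encodes the calcium buffer calbindin, rose from 43.1 ± 8.89 FPKM (SD, n = 3) to 71.6 ± 5.43 (SD, n = 4), and Elf3, an epithelial transcription factor gene, from 8.85 ± 0.84 to 13.4 ± 0.69 FPKM. The count fell to 0 when control replicate 1, control replicate 2, mutant replicate 2 or mutant replicate 4 was left out. Members on the other side of 0, named after their values were seen, included the water channel gene Aqp2 of the collecting duct, with the largest fold change of the 20 in either direction (-0.83, SE 0.19; adjusted p = 0.0775 by limma), and the ureteric tip gene Wnt11 (-0.46, SE 0.14; adjusted p = 0.165 by limma). All 4 mutants lay below all 3 controls in both. The urothelial plaque genes Upk1a, Upk1b, Upk3a and Upk3b, named after their values were seen, had log2 fold changes of -0.088, -0.059, -0.51 and 0.13. None of them passed. Foxj1, the master gene of motile cilia, was at 2.16 to 2.29 FPKM in controls, with mutants at 2.44, 1.605, 1.59 and 1.89 FPKM. Mutant replicate 1 lay above all controls and the other mutants below them (log2 fold change -0.17, SE 0.11; adjusted p = 0.606 by limma). Motile cilium genes gave 0 calls of 7 by limma, 0 by limma-voom and 0 in the authors' deposited table. At an unadjusted p under 0.05 there was 1 (13.7% of all genes). Tekt2 and Tekt1, of the ciliary tubules, had log2 fold changes of 0.36 and -0.22.

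FoxP proteins are repressors that pair with each other through a leucine zipper. Foxp2 (ENSMUSG00000029563.17) gave 1.17, 0.983 and 0.806 FPKM for controls, with mutants at 1.27, 1.55, 1.59 and 1.44 FPKM, on 419 to 1038 reads. The groups lay apart by a narrow margin, and since only 1 control reached 1 FPKM, it passed the filter through the mutants. Its log2 fold change was 0.31 (SE 0.094; adjusted p = 0.159 by limma), and 0.56 (SE 0.15, adjusted p = 0.00734) in the authors' deposited table. Its relatives were higher in level and did not pass: Foxp4 was at 21.3 to 23.6 FPKM in controls and 21.5 to 26.8 in mutants (log2 fold change 0.14, SE 0.086), and Foxp1 at 4.82 to 6.15 and 4.83 to 5.85 FPKM (-0.020, SE 0.092).

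FoxO genes differed little. Foxo4, on the X chromosome, gave 25.8, 25.3 and 28.2 FPKM for controls, with mutants at 22.8, 25.1, 24.3 and 24.1 FPKM. Foxo3 gave 11.8, 10.7 and 10.9 FPKM for controls, with mutants at 9.38, 9.91, 10.3 and 10.6 FPKM. In both genes the groups lay apart by a small margin, with mutant means of 91.0% and 90.5% of the control means, and neither passed (limma adjusted p = 0.436 and 0.479). Foxo1 was at 4.73 to 5.63 FPKM in controls and 5.04 to 5.52 in mutants, and Foxo6 reached at most 0.750 FPKM. Of 31 tested genes that control FoxO proteins or are known targets, limma and limma-voom called 0. At an unadjusted p under 0.05 there were 7 (13.7% of all genes), and 3 were lower in the authors' deposited table (3.74%). The median was -0.035. The smallest p were those of Sod2, a mitochondrial antioxidant enzyme gene, and Klf15, a metabolic transcription factor gene (log2 fold changes -0.35 and -0.50; limma adjusted p = 0.113 and 0.119). Proximal tubule genes, many of them metabolic transporters and enzymes, had a median of -0.90. Limma called 5 of 17 lower (1.05% of all genes), and 0 without control replicate 1, control replicate 2, mutant replicate 2 or mutant replicate 4. At an unadjusted p under 0.05 there were 16 of the 17 (13.7% of all genes). The authors' deposited table called 13 of the 19 listed lower (3.74%). The part of these proximal tubule genes in the FoxO values was not tested.

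Foxm1 (ENSMUSG00000001517.15) was at 18.3 to 19.6 FPKM in controls and 15.9 to 21.4 in mutants, a log2 fold change of -0.0024 (SE 0.093; adjusted p = 0.998 by limma). Of 22 mitotic genes, many of them Foxm1 targets, 0 were called by limma, 0 had an unadjusted p under 0.05, and limma-voom and the authors' deposited table called 0; the median was 0.084, and 17 lay above 0. Tpx2 and Cdc25c, a spindle factor and a phosphatase that starts mitosis, had the smallest p, with log2 fold changes of 0.15 and 0.14. The repressors Foxk1 and Foxk2, tied to growth and autophagy, were at 8.73 to 11.2 and 23.9 to 26.5 FPKM in controls and at 7.35 to 10.3 and 20.5 to 27.3 FPKM in mutants. Foxj2 was at 4.59 to 5.75 FPKM in controls and 4.73 to 5.69 in mutants, and Foxj3 at 9.14 to 10.6 and 8.92 to 10.8 FPKM. Foxn2 was at 6.15 to 7.28 FPKM in controls and 6.08 to 7.25 in mutants, and Foxn3 at 6.01 to 7.06 and 5.88 to 7.74 FPKM. In all of these the groups overlapped. Those 6 genes had log2 fold changes from -0.096 to 0.087, with limma adjusted p from 0.818 to 0.996.

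**Figure D4:**
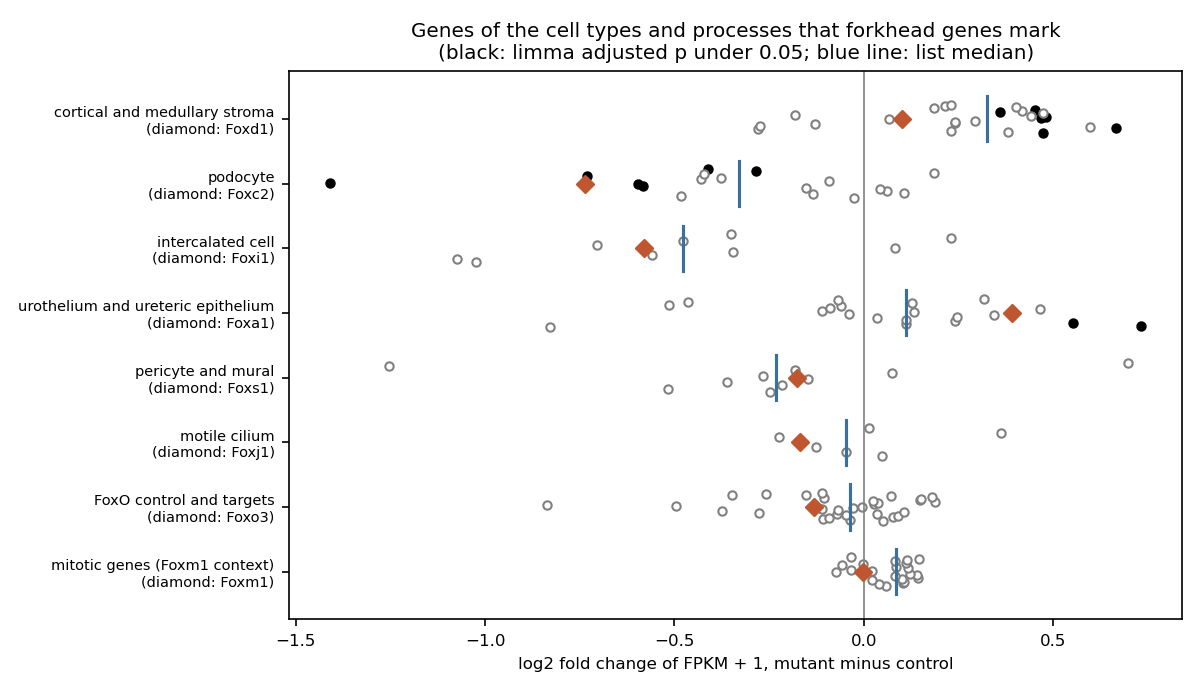
Log2 fold change of the tested genes in 8 lists of cell types and processes (black points: limma adjusted p under 0.05; blue line: list median; diamond: the forkhead gene tied to the list). Stromal genes have a median of 0.33 with Foxd1 at 0.10, and podocyte genes a median of -0.33 with Foxc2 at -0.74.

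The remaining marker lists gave few calls by limma, which called 1.53% of all genes. It called 0 of 19 endothelial, 0 of 10 immune, 0 of 6 skeletal muscle and 0 of 7 gut, liver and lung genes. At an unadjusted p under 0.05 there were 4, 6, 0 and 2, against 13.7% of all genes. All 10 immune genes lay above 0, with a median of 0.23. Limma-voom called 0 in each of these lists. The counts in the authors' deposited table were 1, 1, 0 and 1, against 5.49% of all genes there. Limma called 1 of 4 neural crest genes (lower), 1 of 2 adrenal and gonad genes (higher) and 2 of 12 kidney marker genes (lower). The adrenal and gonad call was lost when any 1 library was left out, and the neural crest call in each case but that of mutant replicate 1. The kidney marker count was 0 without control replicate 1, control replicate 2, mutant replicate 2 or mutant replicate 4, and 1 without control replicate 3. Their part in the forkhead values was not tested.

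By level, the family lay between percentiles 7.8 and 83.7 of all listed genes. In controls the highest members were Foxc2 (34.9 ± 4.62 FPKM, n = 3), Foxo4 (26.4 ± 1.53), Foxk2 (24.9 ± 1.45) and Foxp4 (22.7 ± 1.22); the Foxc2 values lay above those of Foxo4, and those of Foxo4 and Foxk2 overlapped. In the mutants Foxp4 (25.2 ± 2.49 FPKM, n = 4), Foxk2 (24.2 ± 2.94) and Foxo4 (24.1 ± 0.96) stood above Foxc2 (20.8 ± 4.72) by their means, with overlapping ranges. Foxf1 and Foxo6 were lowest in both groups, at percentiles 7.8 and 10. Single-exon genes numbered 7 of the 26 in the annotation: Foxc1, Foxc2, Foxd1, Foxd2, Foxl1, Foxq1 and Foxs1. Of these Foxc2 and Foxd2 were among the 5 that the deposited table called.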

How the data were processed

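The deposited table covers whole-kidney RNA-seq of 3 control and 4 mutant libraries, grouped and numbered by their titles. Per the labels, the kit was NEB Ultra II Directional, which keeps strand. The tools the authors used, per the submitters' processing notes, included STAR 2.6.0c, HTSeq 0.6.1p2 and DESeq2, on build mm39. Per the file headers, each library has FPKM values, and the authors' DESeq2 columns give a mean normalized signal, a log2 fold change with its error, a test score, a p-value and an adjusted p-value (14 genes have none). The number of embryos behind a library is not stated, and p-values therefore cover the spread between these samples, which may be technical.

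Whole reads were recovered from that mean, the FPKM shares and size factors (100.0% of values within 0.05 of a whole number). The 13466 genes with 1 FPKM or more in 3 libraries entered limma 3.58.1 under R 4.3.3 as log2(FPKM + 1), with trended, robust variance and two-sided tests. A call is an adjusted p (Benjamini-Hochberg, all genes) under 0.05. Exact permutation tests compared group means over 35 splits, two-sided. The forkhead members and 18 gene lists were chosen with earlier results of these data known. All forkhead rows are named, and from each list up to 4 called genes with the largest change or, with no call, the 2 with the smallest p. Some genes that this rule names count in the lists but are not reported here. Other settings tried were pseudocount 0.1, no expression filter, 5 FPKM as minimum, quantile scaling, size factors by median ratio, array weights, a replicate block, ordinary empirical Bayes, limma-voom on recovered reads, the deposited test, and omission of each library. The pipeline was tested on simulated data. GENCODE M21 (GRCm38) gave gene order and exon number only. Tables were made with pandas 2.3.3 and Python 3.11.15.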

Additional observations from a re-analysis of the deposited data

Results flagged for a closer look

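Among 32 sets of 4 mutant values (26 forkhead rows and 6 ratios), 2 had a highest or lowest library whose gap to its neighbour took up more of the set's range than Dixon's 95% critical value allows. Gaps and ranges were taken on the log2(FPKM + 1) scale, so they differ from those of the FPKM printed here. Chance gives this in about 1 set in 20. Foxl1 was high in mutant replicate 1 (9.66 FPKM, against 7.22 to 7.59 in the other mutants; gap 0.832 of the range). Foxp4 was low in mutant replicate 2 (21.5 FPKM, against 25.9 to 26.8; gap 0.85 of the range).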

How the results depend on the processing

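Limma's 206 calls over all genes became 109 with a pseudocount of 0.1, 60 with a minimum of 5 FPKM, 1302 with array weights, 2 with the replicate block, 886 in the authors' deposited table and 15 to 481 when a library was left out. Calls among forkhead genes, 0 at first, became 4 with array weights, 5 in the authors' deposited table and 0 to 2 without a library. Calls over the gene lists, 28 at first, became 15, 14, 79, 1 and 77 under those 5 settings in the same order, and 2 to 43 without a library. The labels do not say whether the replicate numbers pair the samples. Same-numbered libraries had correlations of -0.156, 0.028 and 0.098 in their deviations from the group means. So few libraries cannot decide whether they are paired. The cause of these shifts in the number of calls was not tested.

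Over all settings tried, directions turned for 9 members near 0, none of them called under any setting, and for 2 ratios. With the replicate block Foxc1 was at -0.019, also as a single comparison, Foxd2os at -0.021 and Foxn2 at -0.031. Array weights gave Foxd1 -0.044, Foxk2 0.0096, Foxm1 0.029 and Foxp1 0.033. Quantile scaling gave Foxm1 0.021 and Foxp1 0.024, limma-voom gave Foxn2 -0.0043, and the authors' deposited table gave Foxm1 0.0042. Without a library, Foxc1 ran from -0.087 to 0.13, Foxd1 from -0.075 to 0.21, Foxd2os from -0.021 to 0.034, Foxj3 from -0.041 to 0.069 and Foxk2 from -0.10 to 0.033. Foxm1 ran from -0.065 to 0.072, Foxn2 from -0.049 to 0.057, Foxo1 from -0.014 to 0.091 and Foxp1 from -0.096 to 0.053. The ratio of Foxc1 to Foxd1 ran from -0.14 to 0.011, and that of Foxi1 to Foxc2 from -0.021 to 0.34. The other 4 ratios stayed below 0, from -0.85 to -0.69 (Foxc2 to Foxc1), -0.89 to -0.77 (Foxc2 to Foxd1), -0.78 to -0.40 (Foxi1 to Foxc1) and -0.80 to -0.50 (Foxi1 to Foxd1), although too few splits remain then for a p under 0.05. A minimum of 5 FPKM leaves no value for Foxa1, Foxi1, Foxj1, Foxp2, Foxq1 and Foxs1. Foxf1 and Foxo6 rest on few reads and were left out of the limma test; the authors' deposited table gives them 0.25 (SE 0.44) and -0.53 (SE 0.39).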

Other observations

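Control replicate 3 was the lowest control for 18 of the 24 tested forkhead rows (75.0%), against 37.0% of all genes tested. It also had the fewest reads. Foxo4, Foxp4 and Foxd2os were highest there among the controls. Mutant replicate 1 was the highest mutant for 8 of the 24 and mutant replicate 2 the lowest for 7. These counts were made after the values were seen, and their link to tissue makeup or depth was not tested.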
